A study of Mus musculus with 18 samples.

Results

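The Hox genes encode homeodomain transcription factors that give cells of the body axis their position. In mammals they lie in 4 clusters, HoxA, HoxB, HoxC and HoxD, and genes with the same number in different clusters are paralogs. Genes with low numbers are used towards the head and genes with high numbers towards the tail, so the set of Hox genes that a piece of gut transcribes differs along its length. In the intestine many Hox genes are transcribed in the mesenchymal layers, while Hoxb13 is known as a gene of the distal colon and rectum that is also transcribed in epithelium, and Hoxa13 and Hoxd13 act in the formation of the hindgut and anal canal. The members described here are all genes of the deposited table whose mouse symbol, looked up by NCBI gene ID, is Hoxa, Hoxb, Hoxc or Hoxd followed by a number. This gave 35 of 18349 genes. Of 39 such genes in the RefSeq table, Hoxb1, Hoxc11, Hoxc12 and Hoxc13 were not analysed here.

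RNA from the colon of male C57BL/6 mice of wild-type genotype was sequenced in bulk, in 18 libraries of 5 groups. All groups but Control had 2.5% DSS (dextran sulfate sodium, a polysaccharide toxic to colonic epithelium) in the drinking water for 7 days, and then a gavage for 5 weeks. The gavage held the Lactobacillus plantarum strains ZJ316-COM (COM, n = 4), ZJ316-KO (KO, n = 4) or ZJ316 (WT, n = 4), or PBS (DSS, n = 3), and Control mice (n = 3) drank water and were fed normally. WT, KO and COM are bacterial strains, not mouse genotypes, and neither KO nor COM is spelled out in the labels. The protocol excised the entire colon. Whether RNA came from its whole length or from a piece is not given in the sources used here. No label ties a numbered library to an animal or cage, and a p-value here reflects only how much these samples vary.

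Levels are FPKM, a fragment count divided by transcript length and by library size, so genes can be compared per length. Library totals ranged from 517933 to 558590 FPKM, and the number of reads is unknown. The labelled tissue was checked with marker genes. Cdx1, a caudal-type homeobox gene of intestinal epithelium, lay between 150 and 197 FPKM in the 18 libraries. Of the small intestine markers, the lactase gene Lct did not exceed 0.05 FPKM, but others did not stay low in every library. Fabp2, a fatty acid-binding protein gene, reached 292 FPKM in KO 2 and 567.7 FPKM in Control 3, with a median of 59.9 FPKM. The apolipoprotein gene Apoa1 lay at 165 FPKM in COM 2 and at most at 11.7 FPKM elsewhere, and the alkaline phosphatase gene Alpi reached 35.1 FPKM in Control 3, with a median of 1.66 FPKM. Some libraries stood apart in other tissues' genes. The mean log2(FPKM + 1) of 12 pancreatic acinar genes was 9.36 in KO 3, 10.9 in DSS 1 and 8.37 in DSS 3, with no other library above 0.62. That of 13 squamous epithelium genes was 1.499 to 2.76 in COM 3, KO 3, WT 2, WT 4 and DSS 2, and at most 0.55 elsewhere.

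Of the 35 genes, 26 reached 1 FPKM in at least 3 libraries, the filter for testing: 10 of 11 HoxA genes, 9 of 9 HoxB genes, 0 of 6 HoxC genes and 7 of 9 HoxD genes. The genes below the filter have no test, and Hoxd1, Hoxd3 and the 6 HoxC genes among them are given as levels. By NCBI RefSeq (GRCm38.p6) HoxA lies on chromosome 6, HoxB on chromosome 11, HoxC on chromosome 15 and HoxD on chromosome 2. Hoxb13 stands 74719 bases from its nearest neighbour, Hoxb9. The other consecutive HoxB genes from Hoxb9 to Hoxb5 are 278 to 2805 bases apart. The gene model of Hoxa3 overlaps those of Hoxa4, Hoxa5 and Hoxa6, and the models of Hoxb3 and Hoxb4, of Hoxd3 and Hoxd4, and of Hoxd10 and Hoxd11 overlap. The sources used here do not say how reads were assigned, so single values of these 10 genes are uncertain.

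Promoter sequence was at hand for 21 of the 35 genes, in 23 RefSeq promoters of 250 bases before and 50 after a transcript start. The following 3 are shown because Hoxb8 and Hoxd4 were high in the same 3 libraries and Hoxd13 was low in another set of 3; they were picked after their values and matches were known. Capitals mark matches on either strand to a caudal-type motif (TTTATG), a posterior Hox-type motif (CAATAAA) and a Hox and Pbx composite motif (TGATNNAT). The first is Hoxb8 at chr11:96281655-96281954, the second Hoxd4 at chr2:74721728-74722027 and the third Hoxd13 at chr2:74667975-74668274, all on the plus strand of GRCm38.p6.
Hoxb8: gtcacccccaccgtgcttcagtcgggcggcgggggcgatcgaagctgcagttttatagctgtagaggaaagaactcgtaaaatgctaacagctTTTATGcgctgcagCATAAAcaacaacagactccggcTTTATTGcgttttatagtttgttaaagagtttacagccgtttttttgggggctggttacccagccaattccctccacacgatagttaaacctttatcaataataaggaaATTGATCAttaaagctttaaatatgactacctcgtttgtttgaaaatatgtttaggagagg
Hoxd4: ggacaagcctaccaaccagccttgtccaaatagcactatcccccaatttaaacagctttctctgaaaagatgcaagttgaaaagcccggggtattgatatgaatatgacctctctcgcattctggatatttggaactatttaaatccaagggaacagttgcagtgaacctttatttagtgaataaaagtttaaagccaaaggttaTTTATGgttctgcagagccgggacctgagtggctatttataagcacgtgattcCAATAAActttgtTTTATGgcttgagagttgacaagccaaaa
Hoxd13: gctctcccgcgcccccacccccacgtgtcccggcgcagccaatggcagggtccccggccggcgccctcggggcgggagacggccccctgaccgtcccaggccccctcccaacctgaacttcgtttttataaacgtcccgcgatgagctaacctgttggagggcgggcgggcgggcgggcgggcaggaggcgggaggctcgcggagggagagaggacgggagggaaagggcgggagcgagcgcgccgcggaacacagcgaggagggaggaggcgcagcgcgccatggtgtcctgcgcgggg
The Hoxb8 promoter held 2 caudal-type matches, 1 posterior Hox-type match and 1 composite match. That of Hoxd4 held 2 caudal-type matches and 1 posterior Hox-type match. None of the 3 motifs was found in these letters of the Hoxd13 promoter, which was 74.3% G and C with 37 CpG dinucleotides, against 42.3% with 13 for Hoxb8 and 39.7% with 4 for Hoxd4. Some other genes of the same expression patterns differed from these 3: Hoxb4 and Hoxd8, high in the libraries where Hoxb8 was, had 0 matches, whereas Hoxd11, low where Hoxd13 was, had 1 caudal-type and 1 composite match in its 2 promoters. Hoxd10 and Hoxd12, also low where Hoxd13 was, had 0 matches as Hoxd13 did. Over the 23 Hox promoters 5 held the caudal-type motif (21.7%), 2 the posterior Hox-type motif (8.70%) and 3 the composite (13.04%), against 11.9%, 4.60% and 8.85% of 32851 mouse promoters of that length. No matches overlapped in the Hox promoters. A match is only a run of letters and was not tied to binding.

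Of the Hox genes, Hoxb13 and Hoxd13 of paralog group 13 had the highest mean levels. The libraries KO 2, DSS 3 and Control 3 departed from the rest of their groups in Hoxd10 to Hoxd13, and COM 1, COM 2 and Control 3 did so in Hoxb3 to Hoxb8. Whether these 5 libraries hold RNA from another stretch of colon than the rest was not tested, and group comparisons include them unless stated. Hoxb13 alone made up 43.1% to 59.2% of the summed FPKM of all 35 genes in 16 libraries, 30.7% in KO 2 and 0.286% in Control 3. The sum itself ran from 259 FPKM in KO 2 and 266 FPKM in Control 3 to 623 FPKM in Control 1. In bulk samples fewer cells of a type and less RNA per cell cannot be told apart.

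**Figure D1:**
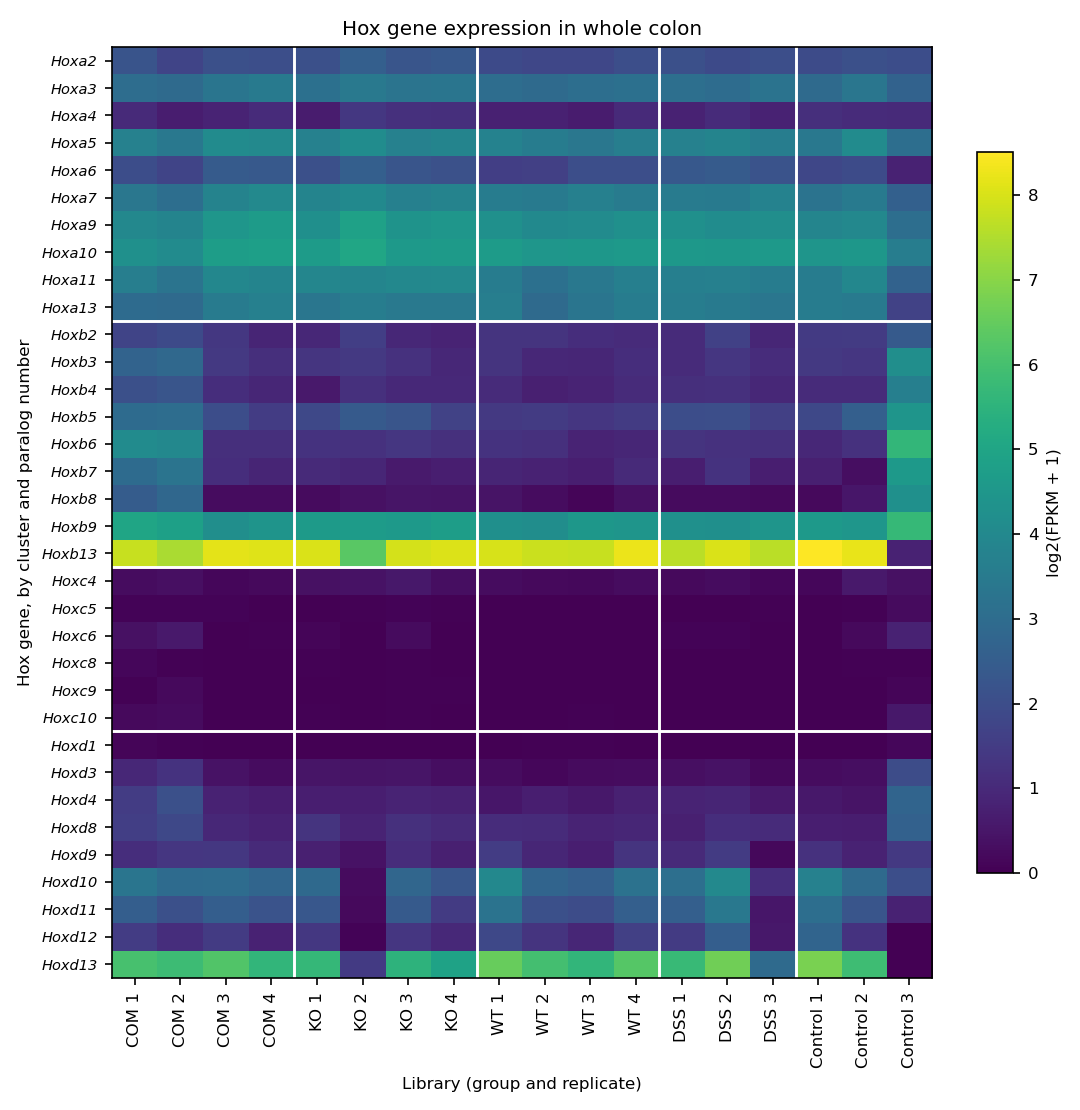
Heat map of log2(FPKM + 1) of Hox genes (rows, by cluster and paralog number) in the 18 libraries (columns, by group, with white lines between groups and clusters). Hoxb13 and Hoxd13 are the brightest rows except in KO 2 and DSS 3, where Hoxd13 is dark, and in Control 3, where both are dark and HoxB genes from Hoxb3 to Hoxb9 are bright, and the HoxC rows stay below 1 FPKM throughout.

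Hoxb13 (gene ID 15408, chr11:96194316-96196610) was the highest of the 35 genes by its mean over libraries. It lay at 224, 173, 285 and 274 FPKM in COM 1 to 4, at 261, 79.3, 246 and 269.7 FPKM in KO 1 to 4, and at 253, 228, 221 and 305 FPKM in WT 1 to 4. In DSS 1 to 3 it lay at 196, 258 and 199 FPKM, and in Control 1 to 3 at 364, 296 and 0.76 FPKM. One Control library thus held the lowest value of all and another the highest, KO 2 was second lowest, and the groups overlapped in each of the 6 comparisons made. In Control 3 the level was 339-fold below the median of the 15 libraries other than Control 3, COM 1 and COM 2.

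Hoxd13 (gene ID 15433, chr2:74668225-74671603), whose product patterns the hindgut and the digits, was second in level. It lay at 64.0, 56.1, 72.9 and 48.2 FPKM in COM 1 to 4, at 49.7, 1.71, 44.9 and 29.3 FPKM in KO 1 to 4, and at 92.4, 61.2, 47.7 and 75.3 FPKM in WT 1 to 4. The DSS libraries 1 to 3 had 52.8, 102 and 6.67 FPKM, and Control 1 to 3 had 110.5, 56.9 and 0.00 FPKM. Control 3, where the gene was listed at 0, KO 2 and DSS 3 were low within their groups, and the other 15 libraries spanned 29.3 to 110.5 FPKM. The groups overlapped in each of the 6 comparisons made.

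Hoxa13 (gene ID 15398, chr6:52258853-52260880), needed for hindgut and urogenital development, was lower and more even. It lay at 6.83, 6.62, 10.6 and 12.1 FPKM in COM 1 to 4, at 9.13, 11.2, 9.77 and 9.94 FPKM in KO 1 to 4, and at 11.5, 6.66, 8.86 and 10.9 FPKM in WT 1 to 4. DSS 1 to 3 held 11.1, 10.2 and 9.24 FPKM, and Control 1 to 3 held 11.03, 10.3 and 2.24 FPKM. Control 3 was again the lowest library, but KO 2 and DSS 3, which were low for Hoxd13, were within the range of the others.

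**Figure D2:**
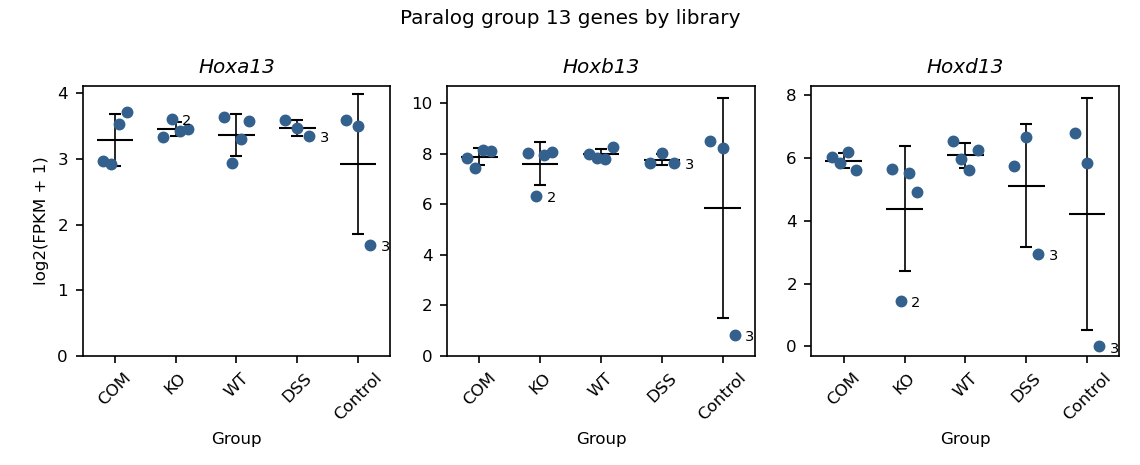
Log2(FPKM + 1) of Hoxa13, Hoxb13 and Hoxd13, 1 point per library, by group, with the group mean as a line and ± SD as bars (n = 4, 4, 4, 3 and 3 from COM to Control); the numbers mark KO 2, DSS 3 and Control 3. Control 3 is the lowest point in each panel, KO 2 is low for Hoxb13 and Hoxd13 and not for Hoxa13, and DSS 3 is low for Hoxd13 only.

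The distal HoxD neighbours followed Hoxd13. KO 2, DSS 3 and Control 3 were the lowest 3 libraries for Hoxd10, Hoxd11, Hoxd12 and Hoxd13, 4 of the 26 genes past the filter, which were chosen for description after their values were seen. Hoxd12 lay at 0.06 FPKM in KO 2, 0.47 FPKM in DSS 3 and 0.00 FPKM in Control 3, against 0.77 to 5.63 FPKM in the other 15 libraries. Hoxd11 lay at 0.16 FPKM in KO 2, 0.43 FPKM in DSS 3 and 0.76 FPKM in Control 3, against 1.81 to 9.60 FPKM. Hoxd10 lay at 0.20 FPKM in KO 2, 1.14 FPKM in DSS 3 and 3.11 FPKM in Control 3, against 3.88 to 15.2 FPKM. Summed over the 4 genes, the level was 2.13 FPKM in KO 2, 8.71 FPKM in DSS 3 and 3.87 FPKM in Control 3, against 35.9 to 136 FPKM. Hoxd9, next in the cluster, was low in KO 2 (0.34 FPKM) and DSS 3 (0.14 FPKM) but not in Control 3 (1.67 FPKM), with 0.63 to 1.86 FPKM elsewhere.

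The HoxB genes from Hoxb2 to Hoxb9 had another pattern. COM 1, COM 2 and Control 3 were the highest 3 libraries for Hoxb2, Hoxb3, Hoxb4, Hoxb5, Hoxb6, Hoxb7, Hoxb8 and Hoxb9, and also for Hoxd4 and Hoxd8, 10 of the 26 genes past the filter. These genes too were singled out after their values were seen. Hoxb8 and Hoxd4 reached 1 FPKM only in these 3 libraries and passed the filter through them. Their place in this count was thus fixed in advance. Hoxb6 (gene ID 15414, chr11:96292814-96301569) lay at 16.1, 14.8, 1.24 and 1.20 FPKM in COM 1 to 4, at 1.35, 1.30, 1.55 and 1.29 FPKM in KO 1 to 4, and at 1.38, 1.26, 0.78 and 0.88 FPKM in WT 1 to 4. In DSS 1 to 3 it lay at 1.41, 1.34 and 1.26 FPKM, and in Control 1 to 3 at 0.91, 1.31 and 48.5 FPKM. The 3 high libraries do not follow the groups: 2 of 4 COM libraries and 1 of 3 Control libraries were high and the rest of both groups was not.

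Hoxb8 (gene ID 15416, chr11:96279401-96285325) reached 4.61 FPKM in COM 1, 6.13 FPKM in COM 2 and 18.2 FPKM in Control 3, and spanned 0.09 to 0.43 FPKM in the other 15 libraries. Relative to the median of those 15, it was 21.95-fold higher in COM 1, 29.2-fold in COM 2 and 86.7-fold in Control 3. In Control 3 the same ratio was 3.71-fold for Hoxb2, 13.01-fold for Hoxb3, 11.1-fold for Hoxb4, 8.11-fold for Hoxb5, 37.6-fold for Hoxb6, 30.5-fold for Hoxb7 and 2.42-fold for Hoxb9. Beyond the gap to Hoxb13 the direction in Control 3 was the opposite, whereas Hoxb13 in COM 1 and COM 2 was 0.869 and 0.673 times that median. Summed from Hoxb2 to Hoxb8, the level was 45.5 FPKM in COM 1, 49.6 FPKM in COM 2 and 144 FPKM in Control 3, against 5.98 to 11.8 FPKM elsewhere.

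Among the proximal HoxD genes, Hoxd4, whose promoter is printed above beside that of Hoxb8, lay at 1.83 FPKM in COM 1, 3.27 FPKM in COM 2 and 5.64 FPKM in Control 3, against 0.38 to 0.86 FPKM elsewhere. Hoxd8 lay at 1.99, 2.60 and 5.23 FPKM in the same libraries, against 0.61 to 1.43 FPKM. Hoxd3, below the filter, lay at 0.91, 1.35 and 2.92 FPKM in them, and only COM 2 and Control 3 reached 1 FPKM. Hoxd1 did not exceed 0.12 FPKM.

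**Figure D3:**
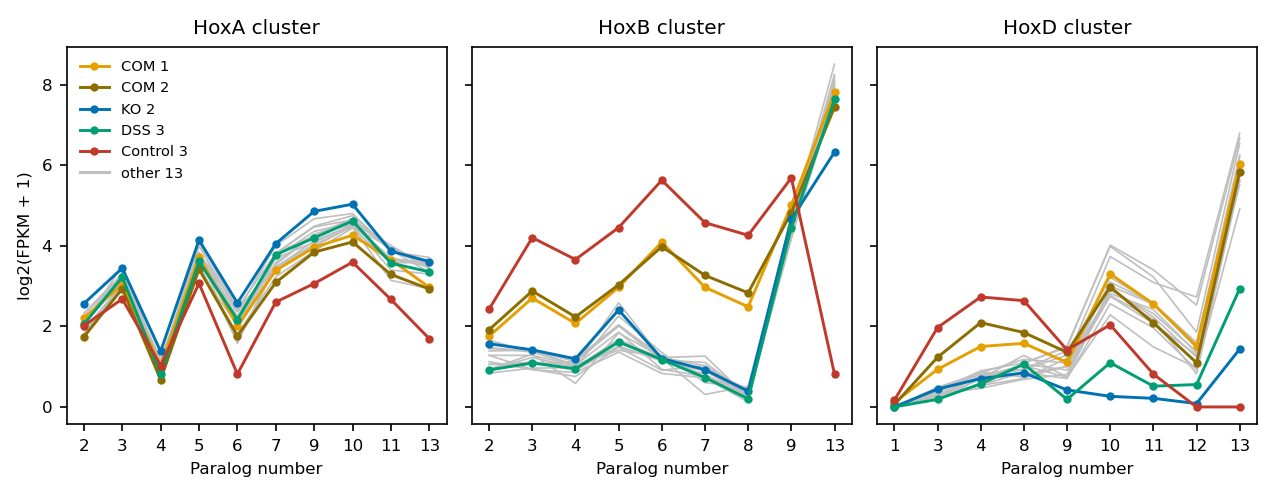
Log2(FPKM + 1) along the HoxA, HoxB and HoxD clusters, by paralog number, 1 line per library; 5 libraries are coloured and the other 13 are grey. COM 1, COM 2 and Control 3 run above the grey lines from Hoxb3 to Hoxb8 and at Hoxd3, Hoxd4 and Hoxd8, while KO 2, DSS 3 and Control 3 run below them from Hoxd10 to Hoxd13.

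HoxA genes past the filter were transcribed at both low and high paralog numbers and varied less. Hoxa10 had the highest mean of the cluster and lay at 18.2, 16.1, 25.9 and 26.9 FPKM in COM 1 to 4, at 24.4, 31.8, 23.1 and 24.0 FPKM in KO 1 to 4, and at 24.6, 21.1, 21.8 and 22.6 FPKM in WT 1 to 4. DSS 1 to 3 gave 22.4, 21.98 and 23.6 FPKM, and Control 1 to 3 gave 20.7, 21.5 and 11.1 FPKM. Control 3 was the lowest and KO 2 the highest library, and the 3 DSS values lay above the 3 Control values. The ranges of the other genes over the 18 libraries were 2.34 to 4.92 FPKM for Hoxa2, 5.41 to 10.4 FPKM for Hoxa3 and 0.55 to 1.60 FPKM for Hoxa4. They were 7.39 to 16.7 FPKM for Hoxa5, 5.08 to 15.6 FPKM for Hoxa7, 7.36 to 28.0 FPKM for Hoxa9 and 5.36 to 15.1 FPKM for Hoxa11. Control 3 was the lowest library for 8 of the 10 HoxA genes past the filter and KO 2 the highest for 7, both distal and proximal. How often these libraries were lowest or highest over all genes was not counted. The sum from Hoxa9 to Hoxa13 was 84.6 FPKM in KO 2, the highest, and 26.1 FPKM in Control 3, the lowest.

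HoxC transcripts were nearly absent from the values. The sum over the 6 HoxC genes was 0.10 to 0.88 FPKM in 16 libraries, 1.20 FPKM in COM 2 and 1.82 FPKM in Control 3. Hoxc4 had the highest mean and lay at 0.21, 0.28, 0.10 and 0.17 FPKM in COM 1 to 4, at 0.31, 0.33, 0.46 and 0.25 FPKM in KO 1 to 4, and at 0.21, 0.17, 0.14 and 0.21 FPKM in WT 1 to 4. In DSS 1 to 3 it lay at 0.17, 0.21 and 0.11 FPKM, and in Control 1 to 3 at 0.10, 0.51 and 0.30 FPKM. All 4 KO values lay above all 4 WT values, and the gene was below the filter for testing. Hoxc6 had the widest range of the cluster. It lay at 0.31, 0.48, 0.00 and 0.04 FPKM in COM 1 to 4, at 0.09, 0.01, 0.20 and 0.00 FPKM in KO 1 to 4, and at 0.00, 0.00, 0.00 and 0.01 FPKM in WT 1 to 4. In DSS 1 to 3 it lay at 0.07, 0.05 and 0.00 FPKM, and in Control 1 to 3 at 0.00, 0.15 and 0.76 FPKM. Its highest 3 libraries were again Control 3, COM 2 and COM 1. Hoxc5, Hoxc8, Hoxc9 and Hoxc10 had highest values of 0.18, 0.12, 0.16 and 0.46 FPKM.

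Other genes with a regional pattern in the gut were read in the same libraries. They come from the marker lists, or are named because of their pattern, and their part in the Hox values was not tested. Osr2, a zinc finger transcription factor gene, lay at 40.3 FPKM in COM 1, 37.1 FPKM in COM 2 and 126 FPKM in Control 3, and at 0.78 FPKM or less elsewhere. Slc10a2, the ileal bile acid transporter gene, lay at 26.4, 26.6 and 82.4 FPKM in these 3 libraries, against 1.13 to 5.62 FPKM. Sis, the sucrase-isomaltase gene of the small intestine, lay at 4.19 FPKM in Control 3 and did not exceed 1.79 FPKM in COM 1 and COM 2. In the other 15 libraries it did not exceed 0.07 FPKM. Other markers of that list were not high in Control 3. Anpep was lowest there (2.48 FPKM, against 3.38 to 8.77 FPKM elsewhere), as was Lyz1 (4.78 FPKM, against 11.1 to 31.4 FPKM). Mgam, at 32.0 FPKM in Control 3, lay inside the range of the rest. The 12 small intestine markers were all in the table and none was at 0 in every library. Their summed level was 104 to 427 FPKM in COM, 136 to 374 FPKM in KO, 92.3 to 136 FPKM in WT, 105 to 194 FPKM in DSS and 96.3 to 752 FPKM in Control. Fabp2 alone gave 567.7 FPKM of the 752 FPKM, the sum of Control 3.

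Some genes of the distal colon were low in KO 2 and Control 3. Atp12a, the colonic proton-potassium pump gene, lay at 47.8 FPKM in KO 2 and 0.59 FPKM in Control 3, against 112 to 253 FPKM in the other 16 libraries. Insl5, an enteroendocrine peptide gene of the distal colon, lay at 26.7 FPKM in KO 2 and 1.98 FPKM in Control 3, against 32.0 to 76.2 FPKM. Of the other distal colon markers, Scnn1g, a sodium channel subunit gene, was low in both (0.02 and 0.08 FPKM, against 1.23 to 3.43 FPKM). Scnn1a was low only in Control 3 (32.4 FPKM, with 81.4 FPKM in KO 2) and Scnn1b lowest in KO 2 (1.10 FPKM), with 2.82 FPKM in Control 3, inside the range of the rest. COM 1 and COM 2, with their high HoxB genes, were not low for Atp12a (142 and 145 FPKM). The 5 distal colon markers summed to 244 to 330.0 FPKM in COM, 157 to 343 FPKM in KO, 262 to 380.2 FPKM in WT, 222 to 305 FPKM in DSS and 37.9 to 332 FPKM in Control. Cdx2, a caudal-type homeobox gene that acts upstream of Hox genes in the embryo, was highest in KO 2 (97.4 FPKM) and Control 3 (156 FPKM) and spanned 15.8 to 60.0 FPKM in the other 16. Among markers of the tissue layers, the mean log2(FPKM + 1) of 9 epithelial genes spanned 9.32 to 9.80 and that of 10 smooth muscle genes 6.69 to 7.42. That of 9 fibroblast genes spanned 4.01 to 5.64 and was lowest in Control 3. Control 3 had the highest mean of 9 adipocyte genes (4.61), with COM 2 close to it (4.46) and at most 3.81 elsewhere. It had the lowest mean of 9 B cell genes (0.42, against 1.96 to 3.73).

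**Figure D4:**
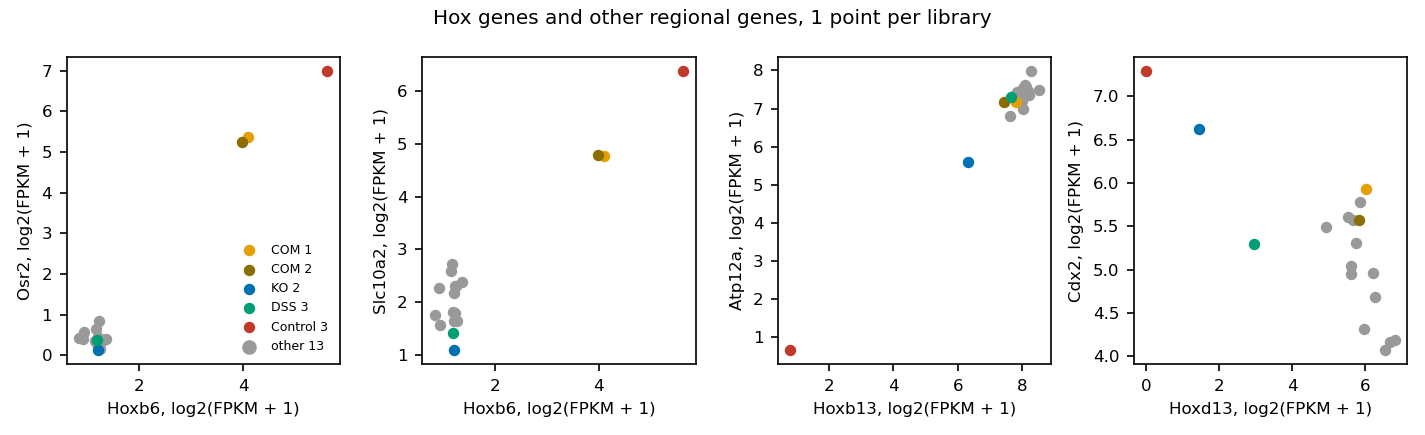
Pairs of a Hox gene and a regional gene on a log2(FPKM + 1) scale, 1 point per library: Hoxb6 with Osr2 and Slc10a2, Hoxb13 with Atp12a, Hoxd13 with Cdx2. COM 1, COM 2 and Control 3 stand apart from the other 15 in the first 2 panels, and Control 3 lies lowest for both Hoxb13 and Atp12a.

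The comparison of DSS with Control addressed how the colon of DSS-treated mice given PBS differed from that of untreated mice. In limma 16.9% of 13263 genes were called at an adjusted p under 0.05, and 1 of 26 Hox genes was, Hoxa6. Hoxa6 (gene ID 15403, chr6:52204858-52208672), whose gene model lies within that of Hoxa3, lay at 4.10, 4.41 and 3.50 FPKM in DSS 1 to 3 and at 2.51, 2.85 and 0.76 FPKM in Control 1 to 3. All DSS values lay above all Control values, with means of 4.003 ± 0.46 FPKM and 2.04 ± 1.12 FPKM (SD, n = 3 each). The log2 fold change of FPKM + 1 was 0.79 ± 0.26 (SE), with limma's adjusted p = 0.0443. Without Control 3 it was 0.44 ± 0.21 with limma's adjusted p = 0.187, and the call was lost. At an unadjusted p under 0.05 there were 5 of 26 Hox genes (Hoxa6, Hoxa7, Hoxa9, Hoxb5 and Hoxb9) against 32.9% of all genes tested. Groups did not overlap for 5 of 26, against 30% of all: Hoxa6, Hoxa9 and Hoxa10 lay above Control in DSS, Hoxb3 and Hoxb9 below.

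Beside the change of Hoxa6, all 9 fibroblast markers tested rose, and they summed to 496 to 707 FPKM in DSS and 182 to 334 FPKM in Control, with none at 0; their part in it was not tested. Of the 3 paralog group 13 genes 0 were called by limma and 0 had an unadjusted p under 0.05. Hoxb13 had a log2 fold change of 1.91 ± 1.32 (limma, adjusted p = 0.336) and of -0.60 ± 0.39 without Control 3 (adjusted p = 0.348). Hoxd13 stood at 0.91 ± 1.43 (limma, adjusted p = 0.692) and at -1.20 ± 1.07 without that library. Hoxa13 stood at 0.55 ± 0.37 (limma, adjusted p = 0.324) and at -0.07 ± 0.22 without it, and Hoxa10 at 0.39 ± 0.21 (limma, adjusted p = 0.223) and 0.09 ± 0.18. Without Control 3, 13 of the 26 fold changes changed sign and 20 came closer to 0. The median over the 26 was -0.08, against 0.05 over all genes tested, with 13 above 0 and 13 below.

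**Figure D5:**
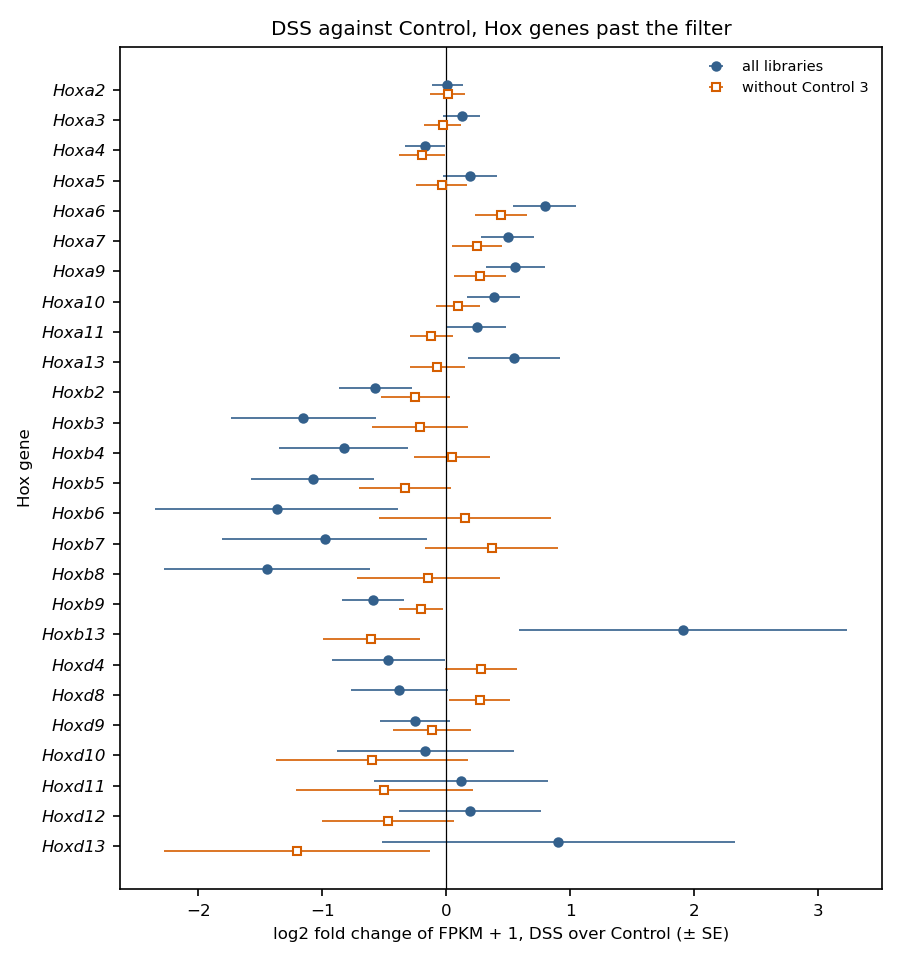
Log2 fold change of FPKM + 1, DSS over Control, with ± SE, for the 26 Hox genes past the filter, with all libraries (filled circles) and without Control 3 (open squares). Without Control 3 the negative values of most HoxB genes move towards 0 and the value of Hoxb13 is -0.60, against 1.91 with all libraries.

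Genes that act with or on Hox genes were counted in the same comparison, in which 16.9% of all genes tested were called and 32.9% had an unadjusted p under 0.05. Of 8 TALE homeobox genes tested, which encode DNA-binding partners of Hox proteins, 0 were called by limma, and 3 had an unadjusted p under 0.05, Meis3, Pknox1 and Pbx3. Meis3 had the smallest of these, at -0.47 ± 0.18 (limma, adjusted p = 0.0828). Of 3 caudal and ParaHox genes tested 1 fell, Cdx1, by 0.24 ± 0.06 (limma, adjusted p = 0.0151). Of 12 other regional transcription factor genes 2 fell, among them Hand2, which acts in enteric neurons and mesenchyme, by 0.63 ± 0.13 (limma, adjusted p = 0.00605). Beside it 4 of 11 enteric neuron and glia markers and 4 of 10 smooth muscle markers fell, with list medians of -0.47 and -0.40, and their part in it was not tested. Of 15 chromatin regulators of Hox genes 2 rose, Kmt2a, a histone methyltransferase gene, by 0.42 ± 0.09 (limma, adjusted p = 0.00585) and the Polycomb gene Cbx8 by 0.34 ± 0.11 (limma, adjusted p = 0.0478).

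The remaining 5 comparisons addressed what each strain changed in DSS-treated mice and how the strains differed. No Hox gene was called by limma in any of them. The 3 comparisons with DSS share its libraries, so their values are not independent. In COM against DSS 0 of 26 Hox genes were called against 0.0151% of all genes tested, and 0 against 11% had an unadjusted p under 0.05. In KO against DSS it was 0 against 0.166%, and 1 (Hoxa2) against 16.3% unadjusted. In WT against DSS it was 0 against 0%, and 0 against 4.77% unadjusted. In KO against WT it was 0 against 0.829%, and 2 (Hoxa2 and Hoxa11) against 20.1% unadjusted. In COM against KO it was 0 against 0.0302%, and 1 (Hoxa2) against 10.8% unadjusted. The number of Hox genes whose groups did not overlap was 1 of 26 in COM against DSS (15.7% of all genes tested), 2 in KO against DSS (19.3%), 2 in WT against DSS (10.5%) and 0 in COM against KO (7.34%). The 1 gene in COM against DSS was Hoxb8, with a lowest COM value of 0.21 FPKM and a highest DSS value of 0.18 FPKM. It passed the filter only through COM 1, COM 2 and Control 3, so its place in this count is no support for a difference. Over the 26 genes the median log2 fold change was 0.23 in COM against DSS, 0.04 in KO against DSS, -0.05 in WT against DSS, 0.14 in KO against WT and 0.29 in COM against KO. Over all genes tested these medians were -0.02, -0.03, -0.0027, -0.02 and 0.0070.

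For Hoxb13 the log2 fold changes were 0.12 ± 1.24 in COM against DSS, -0.16 ± 1.24 in KO against DSS and 0.21 ± 1.24 in WT against DSS, and -0.37 ± 1.15 in KO against WT and 0.28 ± 1.15 in COM against KO. The means were 239 ± 51.4 FPKM in COM, 214 ± 90.3 FPKM in KO, 252 ± 38.0 FPKM in WT, 218 ± 34.7 FPKM in DSS and 220.4 ± 193 FPKM in Control (SD, n = 4, 4, 4, 3 and 3). The SE of these changes came from 1 estimate of spread over all groups, to which Control 3 belongs. In WT against DSS it was 1.24 with all libraries and 0.33 without Control 3, at the same fold change. For Hoxd13 the changes were 0.80 ± 1.33, -0.74 ± 1.33 and 0.97 ± 1.33 for COM, KO and WT against DSS, and -1.71 ± 1.23 in KO against WT and 1.54 ± 1.23 in COM against KO (limma, adjusted p from 0.459 to 0.9996). Without KO 2 the KO against WT value was -0.72 ± 1.20.

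For Hoxa6 the changes were -0.17 ± 0.24, -0.07 ± 0.24 and -0.50 ± 0.24 for COM, KO and WT against DSS, 0.43 ± 0.22 in KO against WT and -0.10 ± 0.22 in COM against KO. Its means were 3.52 ± 0.97 FPKM in COM, 3.81 ± 0.82 FPKM in KO and 2.57 ± 0.63 FPKM in WT (SD, n = 4 each). The WT libraries all lay below the DSS libraries and below the KO libraries, without a call in either comparison (limma, adjusted p = 0.9996 and 0.290). Hoxa10 ranged over the 5 comparisons between -0.26 and 0.18, and Hoxa13 between -0.19 and 0.09.

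KO and WT groups did not overlap for 7 of 26 Hox genes, against 17.2% of all genes tested, and all 7 lay higher in KO, a pattern of 7.83% of all: Hoxa2, Hoxa3, Hoxa6, Hoxa7, Hoxa11, Hoxb5 and Hoxb9. None of the 7 was called. Hoxa2, whose product patterns the hindbrain and second branchial arch, had the smallest p, with 3.995 ± 0.70 FPKM in KO and 2.73 ± 0.30 FPKM in WT (SD, n = 4 each) and a log2 fold change of 0.42 ± 0.11 (limma, adjusted p = 0.0682). Without KO 2, where it was highest, the value was 0.33 ± 0.10 (limma, adjusted p = 0.187). In COM against DSS the positive values of Hoxb2 to Hoxb9 came with COM 1 and COM 2. These libraries were picked as high for such genes, so a lower value without them was fixed in advance. Hoxb13 went the other way, from 0.12 to 0.37 when COM 1, COM 2 and Control 3 were left out. Hoxb8 stood at 1.25 ± 0.78 (limma, adjusted p = 0.563) and at 0.06 ± 0.13 without COM 1, COM 2 and Control 3, and Hoxb6 at 1.37 ± 0.92 and -0.07 ± 0.13. Under that exclusion 13 of the 26 values changed sign.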

How the data were processed

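Per the labels' protocols, total RNA from rinsed and frozen colon was read on the DNBSEQ platform. A single table of FPKM was deposited by the authors, with 2 decimals, for 18349 genes in 18 libraries, keyed by NCBI gene ID. The submitters' processing notes name the build mm10. Which aligner, FPKM program, annotation and strand setting were used is not given in the sources used here. Symbols, coordinates and promoters came from RefSeq (GRCm38.p6), which matched 18230 IDs and not 119. The protocol splits DSS mice into 5 groups but names 4, and it mentions no gavage of Control mice.

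FPKM is already normalized, so no count test was used. Values were taken as log2(FPKM + 1), which understates changes of low genes. The 13263 genes that reached 1 FPKM in 3 or more libraries entered 1 limma 3.58.1 model (R 4.3.3, mean-variance trend) of 5 groups, with 6 two-sided contrasts, Benjamini-Hochberg adjustment over all genes tested and calls at an adjusted p under 0.05. The model was tested on simulated data. Members, lists and alternatives were chosen with earlier results of these data known. Full values are given for group 13 genes, for the highest and the most variable gene of each cluster and for called genes, and other named genes were chosen after their values were seen. Alternatives were another pseudocount, other filters, quantile normalization, TPM rescaling, a replicate block, a fit of only the groups compared, and libraries left out. Some genes are not reported here.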

Additional observations from a re-analysis of the deposited data

Results flagged for a closer look

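In groups of 4 libraries, 3 Hox values lay far from the rest of their group, all in KO 2. Hoxa10 was at 31.79 FPKM there, against 23.1 to 24.4 FPKM in the other KO libraries. Hoxb2 was at 1.97 FPKM, against 0.79 to 0.92 FPKM. Hoxb13 was at 79.33 FPKM, against 246 to 269.7 FPKM. The gap to the nearest library was 0.847, 0.890 and 0.876 of the group's range. Of 78 sets of 4 values, 26 genes in 3 groups, chance flags about 1 in 20, so 3 flags are no more than chance would give. The Control and DSS groups, with 3 libraries each, were not examined in this way.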

How the results depend on the processing

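Few values here were past a threshold, so for most values an alternative can change the direction and no call. Of 324 fold changes of single genes under alternatives other than leaving out 1 library, 287 kept their direction and side of the threshold, 29 changed sign and 8 lost a call; of 66 counts 55 were unchanged. The alternative without Control 3, COM 1 and COM 2 together was chosen after seeing the data. That without KO 2, DSS 3 and Control 3 drops libraries picked as low in Hoxd10 to Hoxd13. A shift of Hoxd13 under it follows from that choice and is no support for any group difference. Depth is unknown, and the HoxC genes, under 1 FPKM, entered only the fit with no filter. The causes of the changes below were not tested.

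The single call in DSS against Control, Hoxa6, held with a pseudocount of 0.1 and with TPM rescaling. The number called was 0 with no filter (against 12.2% of all genes), after quantile normalization (14.9%) and with only the groups compared (0%). It was also 0 without the 3 libraries low in Hoxd10 to Hoxd13, KO 2, DSS 3 and Control 3 (9.21%). The same held without the squamous-rich libraries (2.33%) and without Control 3, COM 1 and COM 2 (11.8%). In the main fit the share of all genes was 16.9%. The log2 fold change of Hoxa6 was 0.79 with no filter and with only the groups compared, and 0.56 after quantile normalization. It was 0.51, 0.74 and 0.44 in these exclusions in turn, against 0.79 in the main fit. Without the pancreas-rich libraries, which leaves DSS 2 alone in the DSS group, it was 0.91. With a filter of 5 FPKM, which removes Hoxa6 and leaves 16 Hox genes, the number called was 0, against 15.9% of all genes. With 1 library left out it ranged from 0 to 2. Hoxa6 stayed called in 6 of 18 such fits, those without Control 1, Control 2, WT 4, KO 2, COM 2 or COM 3. Hoxb5 was also called without Control 1, where 27.6% of all genes were, and Hoxb9 without Control 2 (15.2%). In KO against WT 1 Hox gene was called with only the groups compared (Hoxa11), against 3.52% of all genes, where the main fit had 0.829%. Without Control 3, COM 1 and COM 2 there were 3 (Hoxa2, Hoxa11 and Hoxb9), against 6.22%. That exclusion drops no KO or WT library, so the fold changes of these 3 genes stayed the same and their SE was smaller. Leaving out 1 library gave 0 to 1, Hoxa2 without Control 3 (against 5.39%) or without KO 1 (against 1.15%). In the other 4 comparisons the number was 0 in every alternative run.

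Same-numbered libraries deviated together with r over 0.1 in 1 of 3 to 3 of 4 pairs, depending on the comparison. In WT against DSS each of the 3 pairs correlated best with its own number, and in COM against KO 3 of 4 did. It was 1 of 3 in DSS against Control, 1 of 4 in KO against WT, and 0 of 3 in KO and in COM against DSS. Whether the numbers pair the samples cannot be settled from these values, and no label says so. With the replicate number as a block 0 Hox genes were called in DSS against Control, against 13.4% of all genes, and no other count moved.

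Signs changed as follows, as log2 fold changes. Without Control 3, KO 2 and DSS 3, Hoxa13 was -0.0104, Hoxb13 -0.54 and Hoxd13 -0.11 in DSS against Control; Hoxa10 was 0.0202 and Hoxd13 -0.12 in WT against DSS; Hoxb13 was 0.20 in KO against DSS, 0.0502 in KO against WT and -0.14 in COM against KO; Hoxd13 was -0.29 in COM against DSS; and Hoxa6 was 0.0083 in COM against KO. Without Control 3, COM 1 and COM 2, Hoxa13 was -0.0704, Hoxb13 -0.60 and Hoxd13 -1.20 in DSS against Control. Hoxa6, Hoxa10 and Hoxa13 were then 0.0936, 0.21 and 0.15 in COM against DSS, and 0.16, 0.0418 and 0.17 in COM against KO. The pancreas-rich libraries are DSS 1, DSS 3 and KO 3, and without them the DSS group is DSS 2 alone. Hoxa10 was then 0.0318, Hoxb13 -0.045 and Hoxd13 -0.59 in WT against DSS, and Hoxb13 was -0.13 and Hoxd13 -0.76 in COM against DSS. Without the squamous-rich libraries, Hoxa10 was 0.0102 in WT against DSS and Hoxa13 -0.0044 in KO against WT. After TPM rescaling Hoxa10 was 0.0087 in WT against DSS. After quantile normalization Hoxa6 was 0.0164 and Hoxa13 0.0265 in KO against DSS.

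With 1 library left out, ranges that crossed 0 were these. In DSS against Control they were -0.0704 to 0.88 for Hoxa13, -0.60 to 3.25 for Hoxb13 and -1.20 to 2.20 for Hoxd13, each negative only without Control 3, and Hoxa6 ran from 0.44 to 1.01. In WT against DSS they were -0.0502 to 0.0202 for Hoxa10, -0.21 to 0.0295 for Hoxa13 and -0.12 to 1.75 for Hoxd13. In KO against DSS they were -0.0782 to 0.0399 for Hoxa13, -0.32 to 0.26 for Hoxb13 and -1.83 to 0.24 for Hoxd13. In COM against DSS they were -0.19 to 0.0433 for Hoxa10 and -0.29 to 1.58 for Hoxd13. In KO against WT they were -0.0477 to 0.19 for Hoxa13 and -0.53 to 0.0502 for Hoxb13, and in COM against KO -0.20 to 0.0272 for Hoxa6 and -0.14 to 0.45 for Hoxb13.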

Other observations

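Over all genes, 17 were higher by at least 1 unit of log2(FPKM + 1) in each of COM 1, COM 2 and Control 3 than in any of the other 15 libraries. Of these 4 were Hox genes, Hoxb3, Hoxb6, Hoxb7 and Hoxb8, and 13 were not: Osr2, Slc51a, Ugt2b5, Prap1, Cyp3a44, Slc10a2, Nts, Hkdc1, Ces1g, Ugt1a1, Nags, Abhd3 and Car1. Slc51a, a subunit gene of the basolateral bile acid transporter, lay at 42.3 FPKM in COM 1, 34.4 FPKM in COM 2 and 109 FPKM in Control 3, and at most at 1.10 FPKM elsewhere. The neuropeptide gene Nts lay at 9.92, 10.3 and 39.2 FPKM in these libraries, and at most at 1.89 FPKM elsewhere. Car1, a carbonic anhydrase gene of the colon, lay at 5102, 4136 and 15636 FPKM, and at most at 2055 FPKM elsewhere.

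In Control 3, 8 genes lay more than 3 units of log2(FPKM + 1) below each of the other 17 libraries: Sval1, Ly6g, Hoxb13, Mptx1, Tgm3, Atp12a, Ctse and Insl5. Sval1 lay at 3.01 FPKM there and at 309 FPKM or more elsewhere, and Ly6g at 1.29 FPKM and 108 FPKM or more. KO 2 held the lowest of the other 17 values for 6 of the 8, the exceptions being Mptx1 in COM 2 and Ctse in Control 2. The genes were listed after seeing the data, and no test was made.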
